A study of Mus musculus with 8 samples.

Results

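The genes described here are Trp53, which encodes the transcription factor p53, and 9 genes of its network: the regulators Mdm2 and Cdkn2a, the growth arrest and stress targets Cdkn1a, Ccng1, Gadd45a and Sesn1, and the cell death targets Bax, Bbc3 and Pmaip1. They were taken by gene name, and all 10 were found among the 52139 genes of one table and the 52338 of the other. RNA sequencing had been done on 8 libraries labelled as wild-type C2C12, an immortalised mouse myoblast line. One table held a single library treated with ginseng berries concentrate (GBC) and a single DMSO library, and the other held 3 libraries treated with ginsenoside Re, a saponin of ginseng, and 3 DMSO libraries (called the Re table here). DMSO is a common solvent and served as the control in both. The labels give neither doses nor treatment times, nor do they say whether replicates came from separate cultures, so p-values measure only the spread between these libraries.

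The protein p53 is held at a low level by MDM2, an E3 ubiquitin ligase that marks it for degradation, and MDM2 is itself a p53 target, which closes a feedback loop. Cdkn2a encodes 2 unrelated proteins from overlapping frames, p16Ink4a, which inhibits CDK4 and CDK6, and p19Arf, which inhibits MDM2. DNA damage and other stresses stabilise the protein p53, and its targets then halt the cell cycle, promote repair or start apoptosis. In myoblasts the arrest gene Cdkn1a is also raised by MyoD when the cells leave the cell cycle to differentiate. Since p53 is controlled largely after translation, the mRNA of Trp53 is not a measure of its activity.

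Values were deposited as log2(TPM + 1), where TPM is a transcript abundance corrected for transcript length and library size. Sequencing depth is unknown. Listed genes summed to 403442 TPM in DMSO and 479938 in GBC in the pair, and to between 642180 and 743269 in the Re table. Of the myoblast markers, Myod1, Myf5, Cdh15, Pax7 and Myog were listed at 0 in both libraries of the pair and Des was at 1.92 and 1.59 TPM, which goes against the label of these 2 libraries. In the Re table the 6 markers summed to between 172 and 189.6 TPM, with Pax7 and Myog under 1 TPM. Myotube markers summed to 0.23 and 0.44 TPM in the pair and 24.1 to 35.5 TPM in the Re table, and the 8 markers of endothelial, immune, epithelial and fat cells to 0.91 and 1.14 TPM against 1.53 to 3.25 TPM. The 6 fibroblast and mesenchymal markers summed to 60.5 and 118 TPM in the pair and to 194.7 to 288 TPM in the Re table. Within that list the markers differed in direction: Thy1 was at 23.8 and 22.1 TPM in the pair and at no more than 0.08 TPM in the Re table, while Col3a1 was at 19.8 and 39.3 TPM against 178 to 271 TPM. In bulk RNA, fewer cells that express a gene and less RNA per cell cannot be told apart.

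To show the sequence in front of these genes, the 250 bases before each annotated transcript start were searched on both strands for the p53 decamer, the 10-base motif that occurs as a pair in p53 response elements and is its own reverse complement. The windows are from RefSeq on GRCm38.p6, another build than the GRCm39 named in the submitters' processing notes, and were matched to the tables by gene name. They held 9 of the 10 genes; Pmaip1 was not among them. An exact decamer was found for 7 of the 9: Trp53, Mdm2, Cdkn1a, Ccng1, Gadd45a, Sesn1 and Bax. Counted by window, 7 of the 14 windows of these 9 genes held a decamer, beside 7.13% of all 32851 windows. The upstream start of Cdkn1a and the start of Ccng1 also held 20 bases that matched 2 adjoining decamers with at most 1 mismatch, found in 0.0761% of all windows. The windows of these genes and of Trp53 and Mdm2 are shown, as the genes that the comparisons turn on, each written 5′ to 3′ toward the start, with exact decamers and adjoining pairs in capitals.
Cdkn1a, chr17:29090729-29090978, + strand: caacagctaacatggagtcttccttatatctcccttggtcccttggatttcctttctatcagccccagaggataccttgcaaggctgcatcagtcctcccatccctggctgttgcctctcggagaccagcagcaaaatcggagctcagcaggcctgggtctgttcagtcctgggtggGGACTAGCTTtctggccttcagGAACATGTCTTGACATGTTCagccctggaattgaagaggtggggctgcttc
Ccng1, chr11:40755287-40755536, - strand: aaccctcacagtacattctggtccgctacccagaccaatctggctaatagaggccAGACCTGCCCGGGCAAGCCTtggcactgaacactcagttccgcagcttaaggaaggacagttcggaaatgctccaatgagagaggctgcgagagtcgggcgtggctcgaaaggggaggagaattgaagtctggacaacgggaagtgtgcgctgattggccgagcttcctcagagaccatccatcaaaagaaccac
Trp53, chr11:69580109-69580358, + strand: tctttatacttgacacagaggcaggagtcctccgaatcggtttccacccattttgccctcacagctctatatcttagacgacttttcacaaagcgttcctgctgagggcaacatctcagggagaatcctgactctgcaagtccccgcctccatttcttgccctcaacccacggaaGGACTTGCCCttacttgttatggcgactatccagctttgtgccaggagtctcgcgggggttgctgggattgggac
Mdm2, chr10:117710759-117711008, - strand: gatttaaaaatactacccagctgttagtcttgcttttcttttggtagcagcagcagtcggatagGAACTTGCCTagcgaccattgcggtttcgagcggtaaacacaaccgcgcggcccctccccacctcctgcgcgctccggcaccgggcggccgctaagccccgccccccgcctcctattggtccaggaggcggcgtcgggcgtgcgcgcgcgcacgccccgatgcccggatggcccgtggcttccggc
The decamer of Bax, AGGCAAGCTT, began 201 bases before its start, that of Gadd45a, GGGCTAGCCC, 40 bases before, and that of Sesn1, AAGCTTGTTT, 173 bases before the downstream of its 2 starts. No exact decamer lay in the windows of Cdkn2a or Bbc3, or in that of the downstream start of Cdkn1a. The best known p53 sites of Mdm2 lie in its first intron, outside these windows. A match is a description of these letters and not evidence of binding.

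Of the 10 genes, 9 were measured and Cdkn2a was listed at 0 in all 8 libraries. Its neighbour Cdkn2b, which encodes the CDK4 and CDK6 inhibitor p15Ink4b, and the next coding gene on that side, Dmrta1, were also listed at 0 in all 8. Mtap, the next coding gene on the other side of Cdkn2a, which encodes a methionine salvage enzyme, had 66.1 (DMSO) and 73.8 TPM (GBC) in the pair and 73.7 to 91.2 TPM in the Re table. The tables were treated as normalised separately, and listed genes summed to less in the pair, so these levels are not compared between them. Of the 52139 genes in both tables, 48.3% were listed at 0 throughout. A listed 0 may also be a failed estimate: mt-Co2, a mitochondrial gene, was listed at 0 in the 3 DMSO libraries of the Re table and reached 112 TPM in another.

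**Figure D1:**
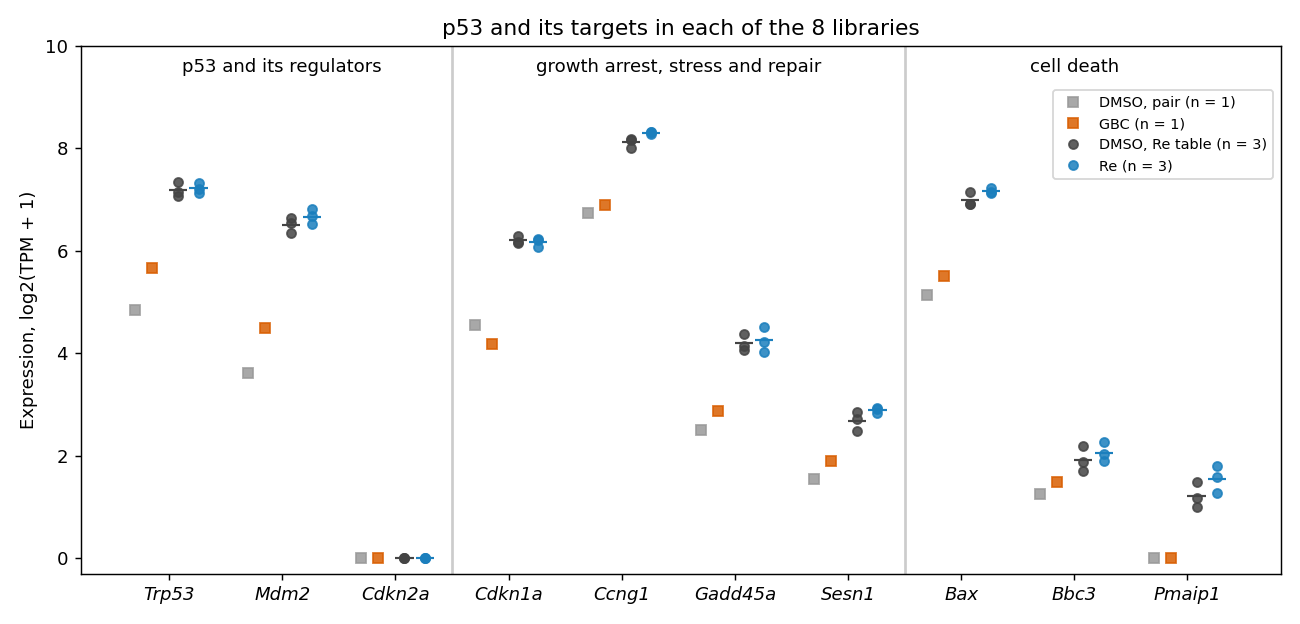
Level of each gene in every library as log2(TPM + 1), grouped by role, with squares for the single DMSO and GBC libraries, circles for the 3 DMSO and 3 Re libraries, and bars for means. Cdkn2a sits at 0 in all 8 libraries, Ccng1 is highest in each group, and the DMSO and Re circles of most genes lie over each other.

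The order of the levels was the same in DMSO and in Re. Ccng1, which encodes cyclin G1, a p53 target that feeds back on MDM2, was the most abundant, at 277 ± 16.6 TPM with DMSO and 315 ± 6.28 TPM with Re (SD, n = 3). Trp53 and Bax followed, and their ranges overlapped in each group. Mdm2, Cdkn1a, Gadd45a, Sesn1, Bbc3 and Pmaip1 came next, each with a range that lay wholly below the one before. The mean levels in DMSO thus ran from 1.35 TPM for Pmaip1 to that of Ccng1, with the BH3-only genes Bbc3 and Pmaip1 at the low end. In the single DMSO library of the pair, Ccng1 again led with 106 TPM, Bax stood above Trp53, and Cdkn1a stood above Mdm2. In the GBC library the order was that of the Re table.

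Ginsenoside Re against DMSO was the replicated comparison, and in it none of the 9 measured genes of the set changed by the test. In limma's moderated test with Benjamini-Hochberg adjustment, 0 of the 9 had an adjusted p under 0.05, as did 0 of the 11967 genes tested, a background of 0.0%. An unadjusted p under 0.05 was found for 745 genes (6.23%). In 5.65% of all genes it came with a higher mean in Re and in 0.577% with a lower one. Of the 9 genes only Ccng1 had such a p, with a higher mean in Re. Limma without trend called 0 genes too, with 732 at an unadjusted p under 0.05, and robust limma 0, with 728. The unadjusted p of Ccng1 was 0.048 in the main limma fit, 0.087 without trend and 0.057 in robust limma. Of the 9 genes 8 had a higher mean in Re, where 77.5% of all genes did. Their median difference was 0.16 on the log2 scale beside 0.11 for all genes. After median-of-ratios scaling, which removes the shift common to most genes, 6 were higher and 3 lower, where 50.1% of all genes were higher, and the median was 0.055 beside 0.00046 for all genes.

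Among the regulators, Trp53 was at 160.5, 133 and 141 TPM with DMSO and 138, 147 and 159.9 TPM with Re. The 3 Re values lay inside the range of DMSO. The difference was 0.04 with a 95% confidence interval of -0.20 to 0.27, and -0.08 after median-of-ratios scaling. Mdm2 was at 91.8, 80.7 and 99.03 TPM with DMSO and 101, 90.6 and 111 TPM with Re. Its groups overlapped, with 2 of 3 Re libraries above the highest DMSO library. That difference was 0.16, with an interval of -0.10 to 0.42, and 0.04 after scaling.

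Cdkn1a encodes p21, the CDK inhibitor that carries out much of the p53 arrest in G1. It was at 77.7, 71.0 and 70.4 TPM with DMSO and 73.35, 66.4 and 73.8 TPM with Re, and the groups overlapped. Its difference of -0.04, with an interval of -0.24 to 0.17, was the only one below 0 among the 9, and was -0.15 once median-of-ratios scaling was applied. When libraries were rescaled without the mitochondrially encoded genes, all 3 Re values lay below the 3 DMSO values, as in 3.22% of all genes.

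Ccng1 was at 288, 258 and 284 TPM with DMSO and 308, 317 and 320.4 TPM with Re. It was the 1 gene of the 9 whose groups did not overlap, with all 3 Re libraries above all DMSO libraries, as in 13.7% of all genes. Re libraries lay wholly below in 0 of the 9 and in 1.27% of all genes. The difference was 0.19, with an interval of 0.00 to 0.38 and an adjusted p of 0.687 in limma. Its groups also stayed apart under each of the 3 other scalings, as in 5.28% to 8.67% of all genes with Re higher. After median-of-ratios scaling the difference was 0.08. Over all 16 fits tried, the adjusted p of Ccng1 ran from 0.355 to 0.963.

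Gadd45a is a gene induced by growth arrest and DNA damage. It was at 15.8, 19.8 and 16.7 TPM with DMSO and 15.2, 21.7 and 17.8 TPM with Re. The lowest and the highest of the 6 libraries were both Re libraries. The difference of 0.05, with an interval of -0.29 to 0.39, was -0.05 after scaling. Sesn1 encodes sestrin 1, which restrains mTORC1 under stress, and was at 6.19, 4.58 and 5.60 TPM with DMSO and 6.67, 6.58 and 6.16 TPM with Re. Here 2 of 3 Re libraries lay above DMSO, with a difference of 0.22 and an interval of -0.09 to 0.53.

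Of the cell death genes, Bax encodes a pore-forming protein of the mitochondrial outer membrane. It was at 141, 119.6 and 119.5 TPM with DMSO and 140.5, 138 and 148 TPM with Re. The groups overlapped through the first DMSO library, and the difference was 0.17 with an interval of -0.04 to 0.39. Bbc3 encodes PUMA, a BH3-only protein that frees BAX from its inhibitors. It was at 3.54, 2.69 and 2.26 TPM with DMSO and 3.81, 3.08 and 2.71 TPM with Re, a difference of 0.14. Pmaip1, which encodes the BH3-only protein NOXA, was at 1.25, 0.99 and 1.80 TPM with DMSO and 2.02, 2.49 and 1.41 TPM with Re. Its difference of 0.34 was the largest of the 9 and had the widest interval, -0.16 to 0.84. Scaled by median of ratios, Bax differed by 0.06, Bbc3 by 0.05, Pmaip1 by 0.27 and Sesn1 by 0.12.

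**Figure D2:**
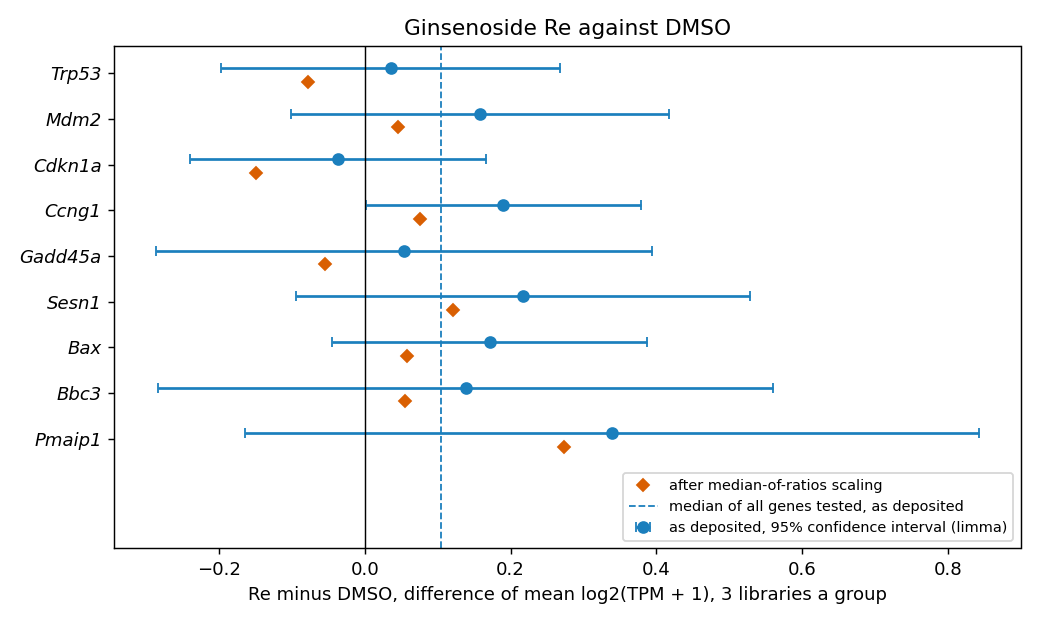
Difference between Re and DMSO for the 9 measured genes, as deposited (circles, with limma's 95% confidence intervals, n = 3 libraries a group) and after median-of-ratios scaling (diamonds). Intervals of 8 genes cross 0, that of Ccng1 starts at 0.00, and scaling moves each gene to the left.

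Without the first DMSO library, the Re and DMSO groups were apart in 4 of the 9 genes, Bax, Bbc3, Ccng1 and Sesn1, all higher in Re, where 34.0% of all genes were so placed. Without the third Re library they were apart in 3, Ccng1, Pmaip1 and Sesn1, beside 18.7%. None of the 9 was called in these or any other fit.

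In the pair, the GBC library had higher Trp53 and Mdm2 and lower Cdkn1a than the DMSO library. With 1 library a group there is no replicate check and no test. Trp53 was at 27.6 TPM with DMSO and 49.7 TPM with GBC, which differ by 0.83, and Mdm2 was at 11.3 and 21.5 TPM, a difference of 0.88. As high a difference was seen in 8.89% and 7.55% of the 6639 genes that averaged at least 5 TPM. Cdkn1a was at 22.4 TPM with DMSO and 17.2 TPM with GBC, which differ by -0.36, and 58 of the 6639 genes (0.874%) were as low. These differences hold the shift of the whole library, whose median was 0.32 across 10989 genes averaging at least 1 TPM.

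The directions of Trp53, Mdm2 and Cdkn1a were the same under every scaling tried. With both libraries rescaled to equal sums the differences were 0.59, 0.66 and -0.62. After median-of-ratios scaling the values were 0.37, 0.44 and -0.81, beside a median of -0.07 for all genes. In the Re table, 2 libraries of 1 group differed by at most 0.27 for Trp53, 0.29 for Mdm2 and 0.15 for Cdkn1a, which is below the deposited differences of the pair. The same quantity was 0.160 for Ccng1, 0.488 for Gadd45a, 0.366 for Sesn1 and 0.478 for Bbc3. These lay above their differences in the pair, of 0.150, 0.361, 0.358 and 0.222. Bax, at 0.235 beside 0.372, lay below. That spread comes from other libraries, with higher levels of these genes, and is not the error of the pair. Myoblast markers were at or near 0 in both libraries of the pair, while the 6 fibroblast and mesenchymal markers summed to 60.5 TPM with DMSO and 118 TPM with GBC, and their part in these differences was not tested.

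The other targets stood nearer to the shift of all genes. Bax was at 34.2 and 44.6 TPM, a difference of 0.37, Gadd45a at 4.70 and 6.32 TPM, a difference of 0.36, and Sesn1 at 1.91 and 2.73 TPM, also 0.36. Bbc3 was at 1.40 and 1.80 TPM, a difference of 0.22. Ccng1 was at 106 TPM with DMSO and 118 TPM with GBC, and its difference of 0.15 was -0.10 with equal sums and -0.32 after median-of-ratios scaling. Bax, Gadd45a and Bbc3 were also below 0 after that scaling, at -0.09, -0.04 and -0.07. Pmaip1 and Cdkn2a were listed at 0 in both libraries.

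By the rule of a difference of at least 1 at a mean of at least 5 TPM, 0 of the 6 genes of the set with such levels were past the fold, where 4.97% of all genes were so much higher and 0.241% so much lower. Gadd45a reached that mean through the GBC library. In total 346 genes were past the fold, of which 95.4% were higher, and 73.0% of 115 after median-of-ratios scaling. Of the 8 genes that averaged at least 1 TPM, 7 were higher, beside 88.8% of all genes, and 3 after scaling, beside 42.0%.

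**Figure D3:**
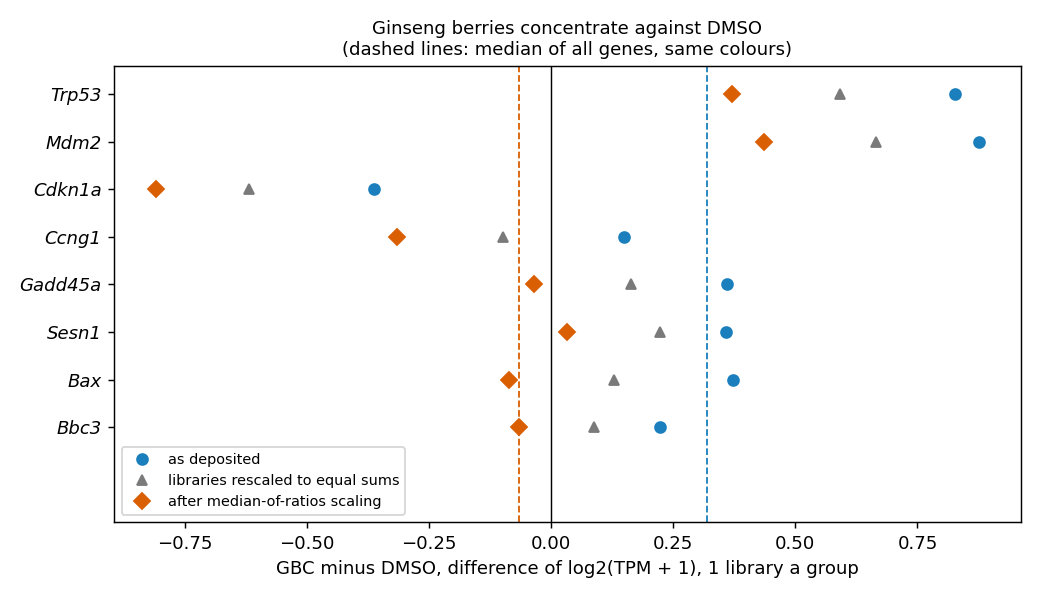
Difference between the single GBC and DMSO libraries for the 8 genes averaging at least 1 TPM, as deposited (circles), rescaled to equal sums (triangles) and after median-of-ratios scaling (diamonds), with dashed lines at the median of all genes. Trp53 and Mdm2 lie right and Cdkn1a left of the dashed line of their own colour under the deposited and the median-of-ratios values.

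Ratios within a library do not depend on how that library was scaled. Cdkn1a stood to Trp53 at 0.484, 0.533 and 0.498 with DMSO and at 0.531, 0.451 and 0.462 with Re. These overlapped, with a log2 difference of -0.07 and an exact two-sided permutation p of 0.4, where 0.1 is the smallest that 3 against 3 can give. The same ratio was 0.814 in the DMSO library of the pair and 0.347 in the GBC library, a log2 difference of -1.23. The first of these lay above and the other below all 6 libraries of the Re table.

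Mdm2 to Trp53, the 2 arms of the feedback loop, ran from 0.572 to 0.733 over the 6 libraries, with a log2 difference of 0.12 (exact permutation p = 0.3). In the pair it was 0.409 in DMSO and 0.433 in GBC, a log2 difference of 0.08, and both ratios lay below those of the Re table. Bax to Bcl2l1, a death effector and the survival gene that encodes BCL-XL, was 3.29, 3.25 and 3.11 in DMSO and 3.54, 3.41 and 3.23 in Re, a log2 difference of 0.07 (exact permutation p = 0.3). Here 2 of 3 Re libraries lay above DMSO. It was 1.83 and 1.78 in the pair. Adjusted over the 3 ratios, each p was 0.4.

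**Figure D4:**
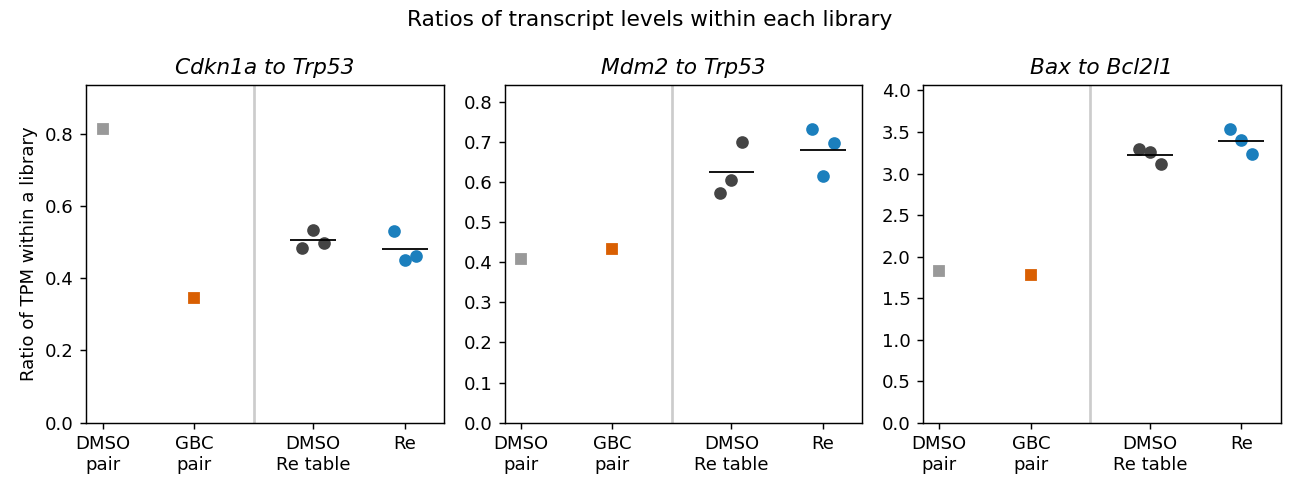
Ratio of TPM within each library for 3 gene pairs, with the single DMSO and GBC libraries on the left and the 3 DMSO and 3 Re libraries on the right, and bars at geometric means. The Cdkn1a to Trp53 ratio is 0.814 and 0.347 in the libraries of the pair and lies between 0.451 and 0.533 in the Re table.

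Across the 2 tables, which were treated as normalised separately, levels are set side by side as a description, rescaled so that the listed genes of a library sum to 1000000 TPM. Trp53 was at 211 ± 11.5 in the 3 DMSO libraries of the Re table (SD, n = 3) and at 68.3 in the DMSO library of the pair. Mdm2 was at 132 ± 8.50 and 27.9, and Cdkn1a at 107 ± 5.28 and 55.6. Ccng1 was at 403 ± 2.84 and 263. Each of the 8 genes with a level above 0 in both tables was higher in the mean of the Re table. It was least so for Bbc3, at 4.12 ± 0.858 and 3.47, whose value in the pair lay inside the range of the Re table. The share of all genes so placed was not computed. Of the 6 myoblast markers, only 1 was above 0 in the pair.

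The wider p53 network was read from lists chosen with earlier results of these data known. Among the 19 regulators and partners of p53, 17 were tested for Re and 0 were called by limma. An unadjusted p under 0.05 was found for 2 of the 17 and for 6.23% of all genes. The median difference of the 17 was 0.14. Of them 15 were higher, or 9 after median-of-ratios scaling, beside 77.5% and 50.1% of all genes. The lowest p were those of Kat5, the TIP60 acetyltransferase that modifies p53, and Chek2, a DNA damage kinase. Kat5 was at 24.6, 21.2 and 23.0 TPM with DMSO and 28.1, 31.4 and 30.3 TPM with Re, a difference of 0.37. Chek2 was at 6.26, 6.84 and 7.63 TPM with DMSO and 9.34, 9.30 and 8.48 TPM with Re, a difference of 0.35. In both genes the groups did not overlap, as in 3 of the 17 and in 13.7% of all genes, and both had an adjusted p of 0.687 in limma.

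In the pair, the 16 regulators and partners averaging at least 1 TPM were all higher in GBC as deposited. Their median was 0.49 beside 0.32 for all genes, and 11 were higher after median-of-ratios scaling. Of all genes, 88.8% were higher as deposited and 42.0% after that scaling. The fold of 1 was passed by 2 of 13 that averaged at least 5 TPM, beside 4.97% of all genes on the higher side and 0.241% on the lower, and by neither of these 2 after scaling. Mdm4, the MDM2 relative that masks the activation domain of p53, was at 8.06 TPM with DMSO and 21.1 TPM with GBC, which differ by 1.29, and 0.86 after scaling. In the Re table Mdm4 ran from 9.56 to 14.5 TPM, which is not compared with the pair, as the tables were treated as normalised separately. Crebbp, an acetyltransferase and coactivator of p53, had 3.3 (DMSO) and 8.88 TPM (GBC), differing by 1.2, or 0.81 after scaling, and reached the minimum mean through the GBC library. As deposited, Trp53, Mdm2 and Mdm4 thus all had higher values in the GBC library, as did 88.8% of all genes. Mdm4 was named for having the largest difference of its list. Other members of the list, Cop1, Ppm1d and Rchy1, differed by 0.045, 0.099 and 0.27. After scaling these were at -0.41, -0.27 and -0.14, among the 5 of 16 that were lower.

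The 30 other p53 targets gave 29 tested genes for Re, with 0 called by limma, 2 at an unadjusted p under 0.05 and a median of 0.12. Such a p was found for 6.23% of all genes. Of the 29 genes 25 were higher, and 16 after median-of-ratios scaling, beside 77.5% and 50.1% of all genes. Fdxr, a mitochondrial reductase, was at 7.49, 8.19 and 8.24 TPM with DMSO and 9.80, 10.4 and 9.34 TPM with Re, a difference of 0.27. Ercc5, a nuclease of excision repair, differed by 0.35. In the pair the median of the list was 0.36 over 26 genes, or -0.03 after scaling. Beside 4.97% of all genes past the fold on the higher side, 1 of 16 in the list was past it. That was Steap3, a metalloreductase of iron uptake, at 10.7 TPM with DMSO and 24.8 TPM with GBC, which differ by 1.14, or 0.70 after scaling. Pml, which forms the nuclear bodies that hold p53, differed by 1.21 from 2.61 to 7.37 TPM, with a mean just under the minimum of 5 TPM.

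Downstream of p53 lie the cell cycle and cell death genes. Of 17 tested CDK inhibitors, G1 cyclins, CDKs and genes of the RB family, 0 were called for Re by limma. An unadjusted p under 0.05 was found for 1 of them, beside 6.23% of all genes. That was Cdkn2c, the CDK inhibitor p18Ink4c, with a difference of 0.35. Cdkn1b, which encodes p27, differed by 0.26. The means of 14 of the 17 were higher in Re, and of 7 after median-of-ratios scaling, beside 77.5% and 50.1% of all genes. In the pair 1 of 12 passed the fold, beside 4.97% of all genes on the higher side. It was Ccnd3, cyclin D3, at 6.90 and 16.6 TPM, with a difference of 1.16, or 0.73 after scaling. Cdk6 differed by 0.75. Of 9 tested genes of the BCL-2 family, 0 were called and 0 had an unadjusted p under 0.05, with a median of 0.10. All 9 had the higher mean in Re, and 4 after scaling, beside 77.5% and 50.1% of all genes. Mcl1 and Bak1, a survival gene and a pore-forming partner of BAX, differed by 0.15 and 0.13. In the pair Bcl2l2, a survival gene, and Bmf, a BH3-only gene, differed by 0.58 and 0.47. In the GBC library all 9 BCL-2 family genes at sufficient level were higher as deposited, where 88.8% of all genes were. After scaling 3 were higher, where 42.0% of all genes were.

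The paralogues of the set were described beside their relatives. Sesn3 was at 4.78, 5.72 and 4.95 TPM with DMSO and 6.10, 5.94 and 6.93 TPM with Re. Its difference was 0.25, with an adjusted p of 0.687 in limma. It was the 1 of 9 tested paralogues whose groups did not overlap, as in 13.7% of all genes with Re higher. Gadd45g averaged 86.3 ± 13.1 TPM with DMSO and 90.8 ± 9.06 TPM with Re (SD, n = 3), and thus above Gadd45a in this table. In the pair it was at 4.57 and 7.08 TPM. Of the 9 tested paralogues all were higher in Re as deposited, and 7 after median-of-ratios scaling, beside 77.5% and 50.1% of all genes.

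Proliferation genes that fall in a p53 arrest gave 0 calls for Re in limma and 0 at an unadjusted p under 0.05 among 12 tested. All 12 had a higher mean in Re as deposited, with a median of 0.09, where 77.5% of all genes did. After median-of-ratios scaling 5 did, where 50.1% of all genes did. Top2a, a topoisomerase of mitosis, and Cdc25c, a phosphatase that starts mitosis, had differences of 0.19 and 0.24. In the pair, 10 of 12 were higher in GBC, and 3 after scaling, beside 88.8% and 42.0% of all genes. Plk1 was at 3.50 TPM with DMSO and 9.69 TPM with GBC, and Aurka at 11.5 and 25.6 TPM. These mitotic kinases, at differences of 1.25 and 1.09, were the 2 of 12 past the fold, beside 4.97% of all genes on the higher side. Plk1 reached the minimum mean through the GBC library, and after scaling the differences were 0.85 and 0.64.

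**Figure D5:**
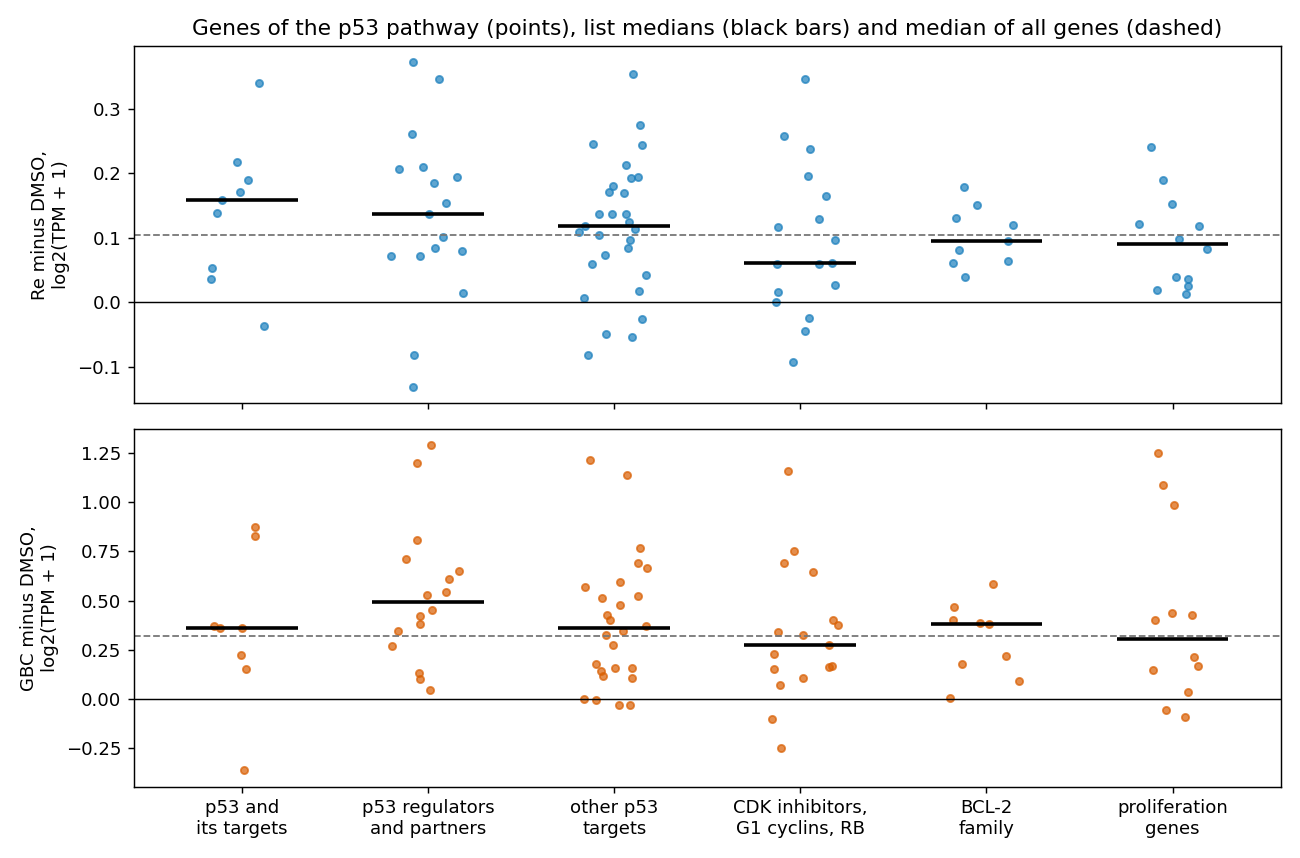
Differences of the genes of the set and of 5 lists (regulators and partners, other p53 targets, CDK inhibitors with G1 and RB genes, BCL-2 family, proliferation), as points, for Re against DMSO (upper panel, means of 3 libraries a group) and GBC against DMSO (lower panel, 1 library a group) on the log2(TPM + 1) scale as deposited, with list medians (black bars) and the median of all genes (dashed). The 6 medians drawn lie between 0.06 and 0.16 for Re and between 0.28 and 0.49 for GBC, beside dashed lines at 0.11 and 0.32.

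The genes whose levels over the 6 libraries of the Re table were most like those of a given gene were named from 8728 named genes averaging at least 5 TPM, by Pearson's r of log2(TPM + 1). They share libraries and library scaling. Taking the highest of 8728 values over only 6 libraries also favours a high r, and shared regulation was not tested. For Trp53 the genes most alike were Cuta, Abcc1 and Bcl2l11, with r of 0.997, 0.994 and 0.990. For Cdkn1a they were Rtl10, B9d1 and Lnpk, from 0.970 to 0.985, and for Mdm2 Rnps1, Zfyve26 and Ugdh, from 0.988 to 0.991. Within the set, Trp53 had an r of 0.48 with Cdkn1a, 0.49 with Mdm2 and 0.73 with Bax, and Cdkn1a had -0.78 with Gadd45a.

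Reads shared with other genes could enter some of these levels, since no source used here gives the strand used in counting. In GENCODE M21, exons of Gadd45a overlap E230016M11Rik on the opposite strand, which was at 0.63 to 1.9 TPM in the Re table and 0.81 to 0.91 TPM in the pair. Exons of Bax overlap Gm45808, listed at 0 throughout, and those of Cdkn1a overlap a model without a named product on the opposite strand. The pseudogene Trp53-ps was at no more than 1.13 TPM in any library.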

How the data were processed

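Values were deposited by the authors as log2(TPM + 1) per Ensembl gene, in 2 tables that were treated as normalised separately. STAR, RSEM and the builds GRCh38 and GRCm39 are listed in the submitters' processing notes, without settings or strand. Values were turned back to TPM. The replicated comparison used limma 3.58.1 in R 4.3.3 (lmFit, eBayes with trend, two-sided) on the deposited scale, whose pseudocount is 1. It covered the 11967 genes averaging 1 TPM or more in 6 libraries, with Benjamini-Hochberg adjustment over all of them and a threshold of 0.05. The log2(TPM + 1) scale understates changes of low genes. The step was tested on simulated data. The pair of single libraries was described without a test, with a fold of 1 on the log2 scale at a mean of at least 5 TPM. Ratios were tested by exact permutation over libraries with scipy 1.17.1 in Python 3.11.15.

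The genes and lists were chosen with earlier results of these data known. All 10 genes were named. From each list the rule took up to 4 genes with measurable levels: 2 with the lowest p in the Re comparison and 2 with the greatest difference in the GBC pair. Likeness was ranked by Pearson's r, leaving out predicted models and pseudogenes. Alternatives were a pseudocount of 0.1, other filters on TPM, 3 other scalings, limma without trend or robust, a block for replicate number, and fits that omit 1 library.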

Additional observations from a re-analysis of the deposited data

How the results depend on the processing

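No gene of the set was called by limma under any of the alternatives tried. The deposited scale sets several directions. Trp53 between Re and DMSO was -0.078 after median-of-ratios scaling, -0.031 with equal sums and -0.056 without mitochondrially encoded genes, and Gadd45a was -0.055, -0.010 and -0.034. The median of the set for Re was 0.055 and 0.079 under the first and last of these, and without mitochondrially encoded genes the groups were apart in 2 genes in place of 1. Leaving out 1 library gave 0 to 7 called genes over all genes, groups apart in 1 to 4 genes of the set, and differences of -0.023 to 0.11 for Trp53, -0.064 to 0.012 for Cdkn1a and -0.074 to 0.17 for Gadd45a. For GBC, 556 genes were past the fold with no filter, 218 at a mean of at least 10 TPM, 115 after median-of-ratios scaling and 208 with equal sums. The median of the set was -0.051 after median-of-ratios scaling, 0.147 with equal sums and 0.189 without mitochondrially encoded genes. Ccng1 was -0.315, -0.099 and -0.056 under these 3, and Gadd45a, Bax and Bbc3 were -0.036, -0.086 and -0.066 under the first. The causes were not tested. With the numbers in the titles as a replicate block, 0 genes were called and 810 had an unadjusted p under 0.05, in place of 745. Libraries with the same number had deviations correlated at 0.163, 0.077 and 0.017, and those with different numbers at -0.172 to 0.094. These ranges overlap and do not settle whether the numbers pair the samples. The main fit used no block.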

Other observations

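Some genes of the lists stood far apart between the 2 tables. They were chosen after their values were seen, and the tables were treated as normalised separately. Gdf15, a stress cytokine and p53 target, had 0.15 (DMSO) and 0.26 TPM (GBC) in the pair and 18.2 to 29.9 TPM in the Re table. Ccnd2, cyclin D2, was at 8.26 and 14.0 TPM in the pair and at no more than 0.50 TPM in the Re table. Cdkn2c was at 23.9 and 27.0 TPM in the pair and at 10.4 to 17.7 TPM in the Re table. Trp63, a relative of Trp53, was at 0.26 and 0.27 TPM in the pair and at no more than 0.06 TPM in the Re table. These Trp63 levels all lay near the floor, under the minimum of 1 TPM, and are not counted as far apart.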
